A study of Mus with 18 samples.

Results

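Acute-phase proteins are plasma and defence proteins whose synthesis climbs during infection or injury. Most are made by the liver, but several are also made outside it by epithelium, macrophages and other cells. Interleukin-6 family cytokines act on them through STAT3, and interleukin-1 and tumour necrosis factor act through NF-κB and C/EBP factors. Lipopolysaccharide (LPS), a component of the outer membrane of Gram-negative bacteria, starts this response through Toll-like receptor 4. The expression of 10 such genes was examined here, out of 21401 gene symbols with a value in each experiment: Lcn2, Saa1, Saa2, Saa3, Hp, Orm1, Orm2, Serpina3n, Serpina3m and Cp. The list was chosen by measured values, because Lcn2 and Saa3 showed the largest differences in muscle labelled LPS-MIC-1. Those muscle differences are therefore described without a test.

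Libraries were prepared from 2 sources, with 3 libraries per group and 18 in all. C2C12 is an established mouse cell line of myoblasts, which can fuse and differentiate into muscle fibres. Its libraries were labelled as saline vehicle control, LPS at 1 μg/mL, or LPS at 1 μg/mL with MIC-1 for 24 h. MIC-1 is moringa isothiocyanate-1, a compound of Moringa oleifera seeds, and the labels give it at 10 μM in cells, whereas the text of the study gives a lower concentration for sequencing. Gastrocnemius, the large calf muscle, came from wild type C57BL/6 male mice given saline vehicle, LPS at 10 mg/kg intraperitoneally, or MIC-1 at 80 mg/kg by gavage (in 10% DMSO) for 3 days before the same LPS dose. The muscles were taken 16 h after LPS, with fat and connective tissue trimmed off. For the control animals the text of the study names DMSO rather than saline, and for the cells it names ethanol as the vehicle. The age of the mice, and whether each library came from a separate animal or culture, are not given in the sources used here, so p-values measure the spread between these libraries, which may be technical.

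The identity of the C2C12 libraries went against their label in both groups without MIC-1. The summed level of 20 macrophage markers was 12972 to 13072 FPKM in libraries labelled control and 6087 to 6234 FPKM in those labelled LPS, against 8.56 to 171 FPKM in those labelled LPS-MIC-1. FPKM is a level scaled for transcript length and for the fragments mapped in the library. The 11 myogenic markers summed to 0.136 to 2.46 FPKM in the control and LPS libraries, with the muscle determination factor Myod1 at 0 in 4 of the 6, and to 858 to 1112 FPKM with LPS-MIC-1. The C2C12 comparisons involving LPS-MIC-1 therefore set libraries of differing cell identity side by side, and that difference and MIC-1 cannot be told apart. Within the LPS-MIC-1 group, replicate 1 stood apart, with a macrophage sum of 171 FPKM. The muscle libraries held their fibre markers in every group, at sums of 172321 to 222425 FPKM. Reads per library are not given in the sources used here. Relative depth, read from the spacing of the lowest values, was 0.465 to 1.02 in C2C12 libraries, lowest in LPS-MIC-1 replicate 3, and 0.988 to 1.11 in muscle. In bulk samples such as these, a change in the number of cells of a type and a change in RNA per cell cannot be told apart.

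Lcn2 encodes lipocalin 2, a secreted protein that starves bacteria of iron by binding their siderophores. In C2C12 libraries labelled control its level was 0.530, 1.05 and 1.92 FPKM, and in those labelled LPS it was 2697, 2678 and 2647 FPKM. No control library came near an LPS library, and Lcn2 was the 26th to 27th most abundant gene by FPKM in the LPS libraries. The LPS mean was 2674 ± 25.3 FPKM (SD, n = 3), 2296 times the control mean. On the log2(FPKM + 0.1) scale the difference was 11.20 (SE 1.08), with an adjusted p of 3.91e-05 in limma. The exact permutation test of 3 against 3 libraries gave p = 0.1, the smallest it can give.

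In the 3 C2C12 libraries labelled LPS-MIC-1, Lcn2 was at 72.1, 3.96 and 3.38 FPKM. All 3 lay below every LPS library and above every control library, but replicate 1 stood far from the other 2. Against LPS the difference was -8.05 (SE 1.08, adjusted p = 0.000142 in limma), and without replicate 1 it was -9.47. Against control the difference was 3.15 (SE 1.08), which with an adjusted p of 0.0251 did not pass the threshold of 0.001 used for the cells. Without replicate 1 the same difference was 1.73, so this 1 library decided the size of the value.

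Replicate 1 held 2.70% of the LPS mean of Lcn2, whereas replicates 2 and 3 held 0.148% and 0.126%. For 11 macrophage markers over 50 FPKM with LPS, the same share was 2.49% to 3.50% in replicate 1, with medians of 0.111% and 0.0853% in replicates 2 and 3. Lcn2 thus lay within the range of the macrophage markers in each of the 3 libraries. Saa3 did not: its share was 12.4%, 8.12% and 8.41%. Whether the macrophage signal of replicate 1 accounts for its Lcn2 was not tested.

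**Figure D1:**
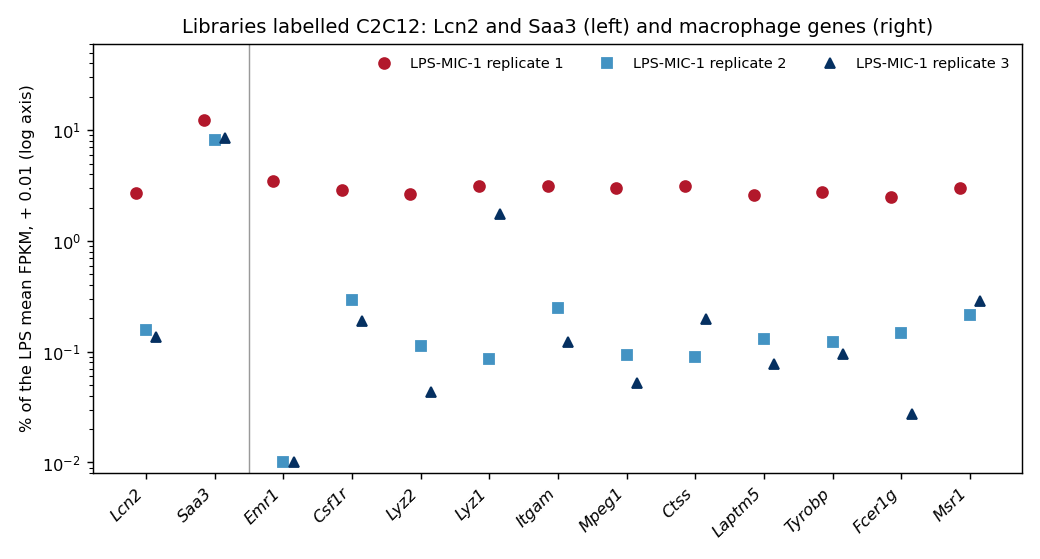
Level in each C2C12 library labelled LPS-MIC-1 as a percentage of the mean FPKM in the LPS libraries (log axis, 0.01 added so that zeros can be drawn). Lcn2 in replicate 1 (2.70%) lies within the range of the 11 macrophage markers of that library (2.49% to 3.50%), while Saa3 lies at 8.12% or more in all 3 libraries.

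Saa3 is the serum amyloid A gene of mice that is induced mainly outside the liver, in macrophages and fat among other places. In C2C12 it was at 0.445, 0.293 and 0.577 FPKM in control libraries and at 626, 633 and 709 FPKM in LPS libraries. The LPS-MIC-1 libraries lay between these groups without overlap, at 81.3, 53.3 and 55.2 FPKM. LPS against control gave a log2 difference of 10.28 (SE 0.222, adjusted p = 2.75e-08 in limma), and LPS-MIC-1 against LPS gave -3.40 (SE 0.222, adjusted p = 1.51e-06). Unlike Lcn2, Saa3 stayed called above control with LPS-MIC-1, at a log2 difference of 6.89 (SE 0.222, adjusted p = 2.79e-08), or 6.69 without replicate 1. The Lcn2 level was 3.73 to 4.31 times that of Saa3 in the LPS libraries, and 0.886, 0.0744 and 0.0613 times in the LPS-MIC-1 libraries.

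Cp encodes ceruloplasmin, the copper-carrying ferroxidase of plasma. It differed from LPS in the other direction than Lcn2 and Saa3 in the C2C12 libraries labelled LPS-MIC-1, while all 3 genes were above control there. The control libraries held 4.44, 5.003 and 4.61 FPKM, the LPS libraries 2.95, 3.31 and 3.10 FPKM, and the LPS-MIC-1 libraries 33.0, 28.2 and 28.9 FPKM. The 3 groups did not overlap. LPS against control differed by -0.57 (SE 0.0905, adjusted p = 0.000711 in limma), a difference that passed on p but not on the log2 threshold of 1. LPS-MIC-1 was higher than LPS by 3.22 (adjusted p = 1.55e-08) and higher than control by 2.65 (adjusted p = 3.77e-08). Without replicate 1 these values were 3.16 and 2.58.

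**Figure D2:**
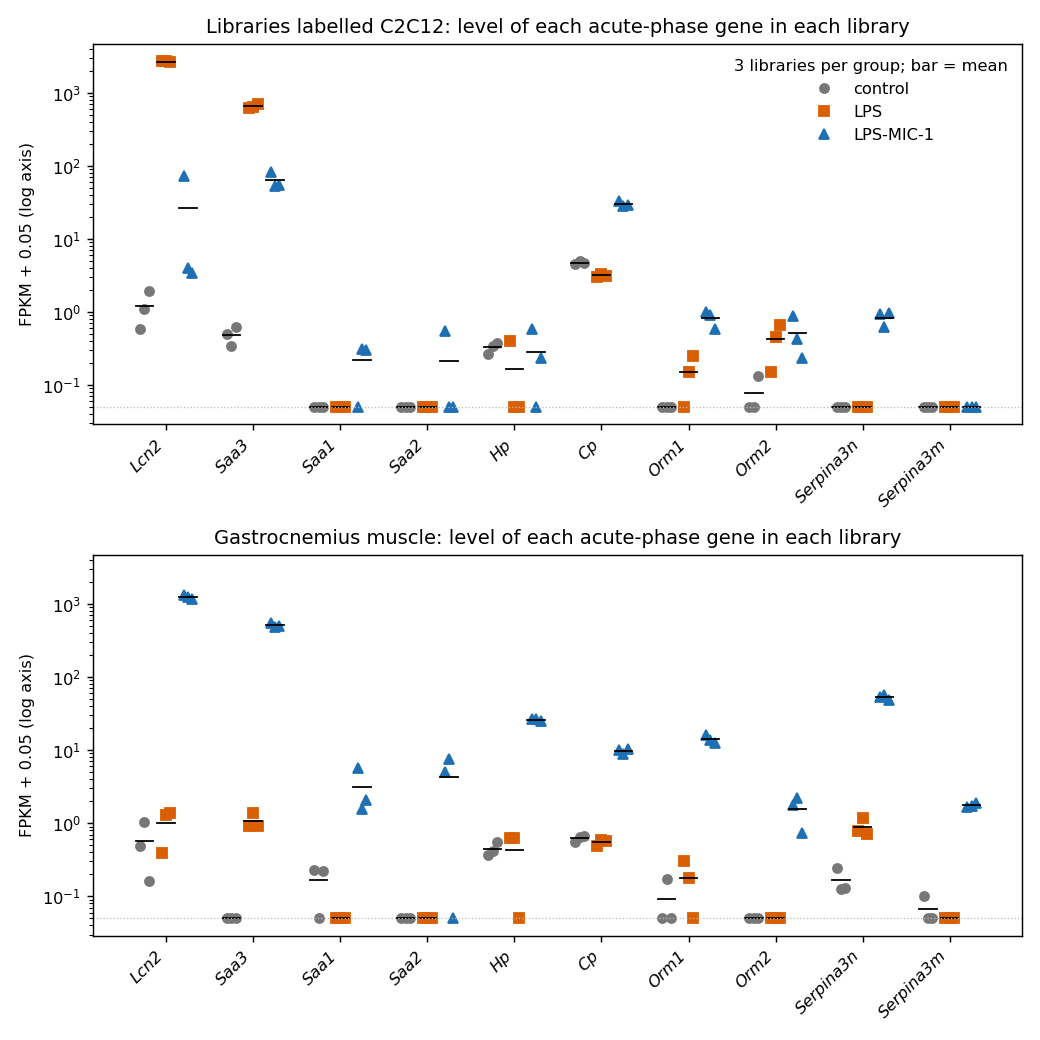
FPKM of the 10 acute-phase genes in every library of both experiments (log axis, 0.05 added; the dotted line marks 0), with 3 points per group and a bar at the mean. In the upper panel Lcn2 and Saa3 are highest with LPS and Cp is highest with LPS-MIC-1. In the lower panel all 10 genes have their highest mean with LPS-MIC-1.

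The other 7 genes did not reach a mean of 1 FPKM over the 9 C2C12 libraries and were not tested. Serpina3n, a serine protease inhibitor, was listed at 0 in all 6 control and LPS libraries and at 0.879, 0.565 and 0.904 FPKM with LPS-MIC-1. Orm1 and Orm2 encode orosomucoids, abundant lipid- and drug-binding glycoproteins of plasma. Orm1 was at 0 in control, 0 to 0.203 FPKM with LPS and 0.544 to 0.940 FPKM with LPS-MIC-1, where it overlapped neither group. Orm2 reached 0.0838 FPKM at most in control, and LPS and LPS-MIC-1 overlapped at 0.101 to 0.615 and 0.183 to 0.830 FPKM. Hp, the haemoglobin-binding haptoglobin, stayed between 0 and 0.531 FPKM with all groups overlapping. Saa1 and Saa2, the serum amyloid A genes of the liver, were at 0 in control and LPS libraries, and Saa1 was above 0 in 2 and Saa2 in 1 of the LPS-MIC-1 libraries. Serpina3m was at 0 in all 9. The filter on the mean was also left out, with a value above 0 still required in at least 3 libraries. Members called higher with LPS-MIC-1 were then 3 in place of 1 against LPS, and 4 in place of 2 against control. Of all genes, 3726 in place of 2648 and 3449 in place of 2300 were called higher in these comparisons. Serpina3n was above 0 in the LPS-MIC-1 libraries only and entered through them.

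Across the whole C2C12 experiment, 10877 genes were tested. For LPS against control, 2 of the 3 tested members were called higher and 0 lower, where 10.9% of all genes were called higher and 10% lower. For LPS-MIC-1 against LPS, 1 was called higher and 2 lower, where 24.3% and 25.6% of all genes were called higher and lower. For LPS-MIC-1 against control, 2 were called higher and 0 lower, where the shares of all genes were 21.1% and 22.1%. With 3 members tested, these counts say nothing about the group of 10. The 3 comparisons share their libraries, and so their values for a gene are not independent.

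In muscle, Lcn2 was at 0.445, 0.991 and 0.111 FPKM in control libraries and at 0.336, 1.24 and 1.34 FPKM in libraries labelled LPS. These groups overlapped, and the difference of 0.92 (SE 0.621) had an adjusted p of 0.372 in limma. Saa3 was listed at 0 in all 3 control libraries and at 0.877, 1.33 and 0.871 FPKM with LPS. The groups did not overlap, and Saa3 was called higher (log2 difference 3.47, SE 0.148, adjusted p = 4.19e-06 in limma). Saa3 passed the filter through the LPS-MIC-1 libraries on which it was chosen, and with the 6 control and LPS libraries alone it could not be tested. With no filter on the mean its adjusted p was 9.10e-06 in limma. In both settings the spread was taken from all 9 muscle libraries, those labelled LPS-MIC-1 among them. The exact permutation test of 3 against 3 libraries gave p = 0.1, the smallest it can give. Against controls at 0 no fold can be given, and the size depends on the added 0.1. With 1 added in its place it was 1.01.

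Serpina3n was the other member called in muscle labelled LPS. Its control libraries held 0.194, 0.0770 and 0.0779 FPKM and its LPS libraries 0.743, 1.14 and 0.660 FPKM, a ratio of means of 7.29. The exact permutation test gave p = 0.1, as it did for Saa3. The log2 difference was 2.14 (SE 0.246, adjusted p = 0.000893 in limma), and with 1 added to each FPKM it was 0.72 and no longer called. These were 2 members called higher and 0 lower out of 8 tested, where 0.654% and 0.591% of 9475 genes were called. Both levels were close to 1 FPKM. Each of the 8 passed the filter through the LPS-MIC-1 libraries, since none reached a mean of 1 FPKM over the 6 control and LPS libraries, and with those 6 alone no member could be tested.

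The remaining tested members gave no call for LPS against control in muscle. Cp was at 0.496, 0.592 and 0.619 FPKM in control and 0.440, 0.542 and 0.516 FPKM with LPS (difference -0.16, SE 0.148). Hp lay at 0.313 to 0.502 FPKM in control and at 0 to 0.571 FPKM with LPS (difference -0.46, SE 0.659). The low Hp value rested on LPS replicate 3, and without it the difference was 0.45. Orm1 gave 0.61 (SE 0.527) and Saa1 gave -0.98 (SE 0.721), with 0.253 FPKM at most in either group. Saa2 was at 0 in all 6 libraries.

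**Figure D3:**
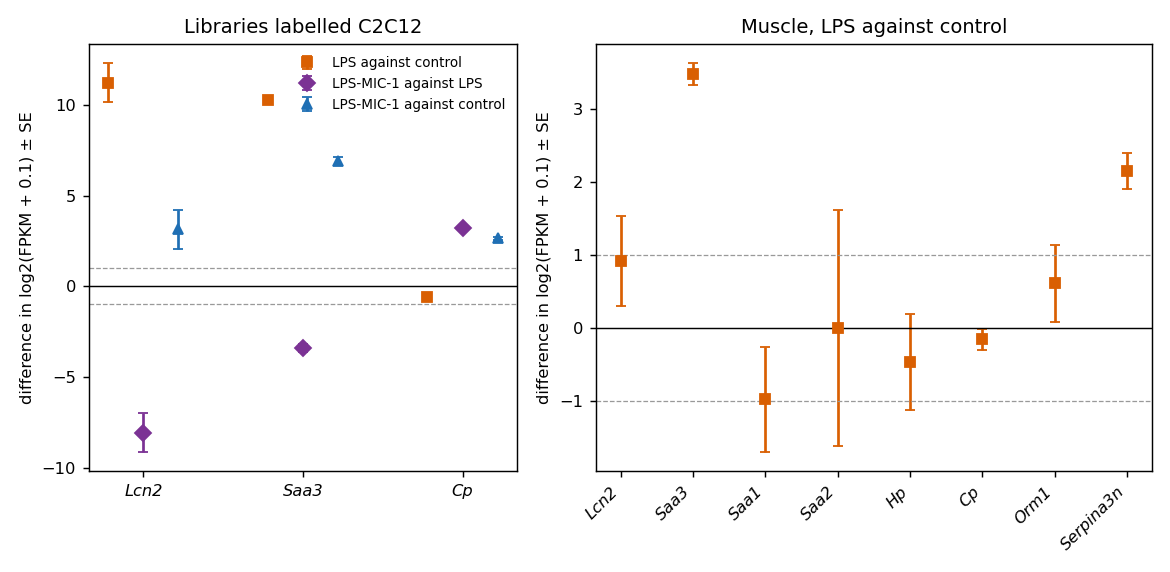
Tested differences in log2(FPKM + 0.1) with their standard errors, 3 libraries per group; dashed lines mark the threshold of 1. In C2C12 libraries (left) Lcn2 and Saa3 are above 0 when LPS is set against control and below 0 when LPS-MIC-1 is set against LPS, and Cp has the opposite signs. In muscle (right) Saa3 at 3.47 and Serpina3n at 2.14 are the called members.

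The muscle libraries labelled LPS-MIC-1 held the high levels on which the genes were selected. Lcn2 was at 1318, 1264 and 1162 FPKM, a mean of 1248 ± 79.1 FPKM (SD, n = 3) and 1284 times the LPS mean. Saa3 was at 547, 489 and 496 FPKM, a mean of 511 ± 31.8 FPKM and 497 times the LPS mean. Every LPS-MIC-1 library exceeded every control and LPS library. Lcn2 ranked 47th to 50th by FPKM in these libraries and Saa3 ranked 133rd to 159th. Among 9475 genes, Lcn2 and Saa3 had the first and second place by log2 difference against LPS, at 10.37 and 8.85. Against control their order was exchanged, at 11.28 and 12.32.

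The next levels were those of Serpina3n, Hp, Orm1 and Cp, in that order. Serpina3n was at 53.4, 56.4 and 48.7 FPKM with LPS-MIC-1, which was 62.4 times the LPS mean and 455 times the control mean. Hp was at 26.5, 26.8 and 24.8 FPKM, 65.8 times the control mean. Orm1 was at 16.0, 13.8 and 12.7 FPKM, against at most 0.253 FPKM in the other groups. Cp was at 9.93, 8.77 and 10.4 FPKM, 19.5 times the LPS mean and 17.1 times the control mean. The ranges of the 6 genes from Lcn2 to Cp did not overlap within the LPS-MIC-1 group, so their order by FPKM held in every library.

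The other 4 genes were low, and their order among themselves did not hold. Saa2 was at 5.04, 7.604 and 0 FPKM and Saa1 at 5.57, 1.49 and 2.05 FPKM. Their coding sequences are near-identical, so reads can be split between them in either direction. Their sum was 10.6, 9.10 and 2.05 FPKM with LPS-MIC-1, and at most 0.177 FPKM in the other groups. Serpina3m was at 1.61, 1.65 and 1.83 FPKM and Orm2 at 1.74, 2.14 and 0.678 FPKM. Saa2 was the 1 member whose LPS-MIC-1 libraries overlapped the other groups, through replicate 3.

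All 10 members differed by more than 1 on the log2 scale in both muscle comparisons with LPS-MIC-1, from 3.88 to 10.37 against LPS and from 3.77 to 12.32 against control. Over all genes 11.7% lay past 1 and 6.42% past -1 against LPS, and 11.5% and 7.07% against control. Nothing is read from these counts, because the members were chosen on these libraries. The members did not move in a common ratio. Lcn2 and Saa3 made up 93.7% to 94.2% of the summed FPKM of the 10, and that sum was 0.277% to 0.295% of all FPKM in the library. In LPS muscle the sum was 3.22 to 4.95 FPKM and in control muscle 1.48 to 2.16 FPKM. The Lcn2 level was 2.34 to 2.58 times that of Saa3 in LPS-MIC-1 muscle.

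The order of the members differed between the experiments at their peaks. In C2C12 libraries labelled LPS, Lcn2 and Saa3 made up 99.9% of the sum of 3315 to 3360 FPKM, and Hp, Orm1 and Serpina3n were at 0.352 FPKM or less. In LPS-MIC-1 muscle Serpina3n, Hp and Orm1 stood at 12.7 to 56.4 FPKM. The 2 tables were normalized separately, so these levels are set side by side without a test.

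Markers of other cell types moved with the LPS-MIC-1 group in muscle. The 12 neutrophil markers summed to 15.04 to 20.04 FPKM with LPS-MIC-1, against 1.76 to 2.74 FPKM in the other groups, led by S100a8 at 7.25, 7.47 and 7.41 FPKM. Of the neutrophil granule genes, Elane, Mpo and Ltf were at or near 0, with 0.117 FPKM at most. Ngp, another granule gene, was at 3.53, 2.68 and 3.28 FPKM with LPS-MIC-1 and at 0 in the control and LPS libraries. The 20 macrophage markers summed to 49.7 and 50.03 FPKM in replicates 1 and 2, below the LPS range of 50.4 to 53.4 FPKM, and to 256 FPKM in replicate 3. Single macrophage markers differed from the sum. Fcer1g, at 16.5, 15.5 and 26.0 FPKM, and Mpeg1, at 1.44, 1.58 and 5.90 FPKM, exceeded every control and LPS library in all 3 LPS-MIC-1 libraries. The highest values otherwise were 7.95 and 0.393 FPKM. C1qa and C1qc lay below every LPS library, and Mrc1 lay below every control and LPS library. Lcn2 was lowest in replicate 3 and Saa3 was there between its values in the other LPS-MIC-1 libraries. The 11 hepatocyte markers summed to 5.91 to 6.67 FPKM with LPS-MIC-1 against 1.49 to 2.76 FPKM otherwise, with albumin (Alb) at 2.60, 2.88 and 2.31 FPKM and the liver factor Hnf4a at 0.103, 0 and 0 FPKM. The 8 adipocyte markers summed to 331 to 359 FPKM against 228 to 301 FPKM, nearly all of it Fabp4, with Adipoq under 1 FPKM in every library. The 8 epithelial markers summed to 17.8 to 19.8 FPKM with LPS-MIC-1 against 5.10 to 5.98 FPKM otherwise, nearly all of it Lgals4 at 19.1, 18.6 and 17.0 FPKM, while Epcam, Cdh1, Krt8 and Krt18 were at 0.492 FPKM or less. The 8 fibroblast markers had a median level of 4.90 to 5.60 FPKM with LPS-MIC-1 against 9.93 to 11.8 FPKM otherwise, with sums of 141 to 159 FPKM and 131 to 141 FPKM. The 8 endothelial markers summed to 80.9 to 91.9 FPKM with LPS-MIC-1, between LPS (64.2 to 66.7 FPKM) and control (98.2 to 102 FPKM). The fibre markers summed to 172321 to 186922 FPKM with LPS-MIC-1 and to 209034 FPKM or more in the other groups. The part of these cells in the member levels was not tested.

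**Figure D4:**
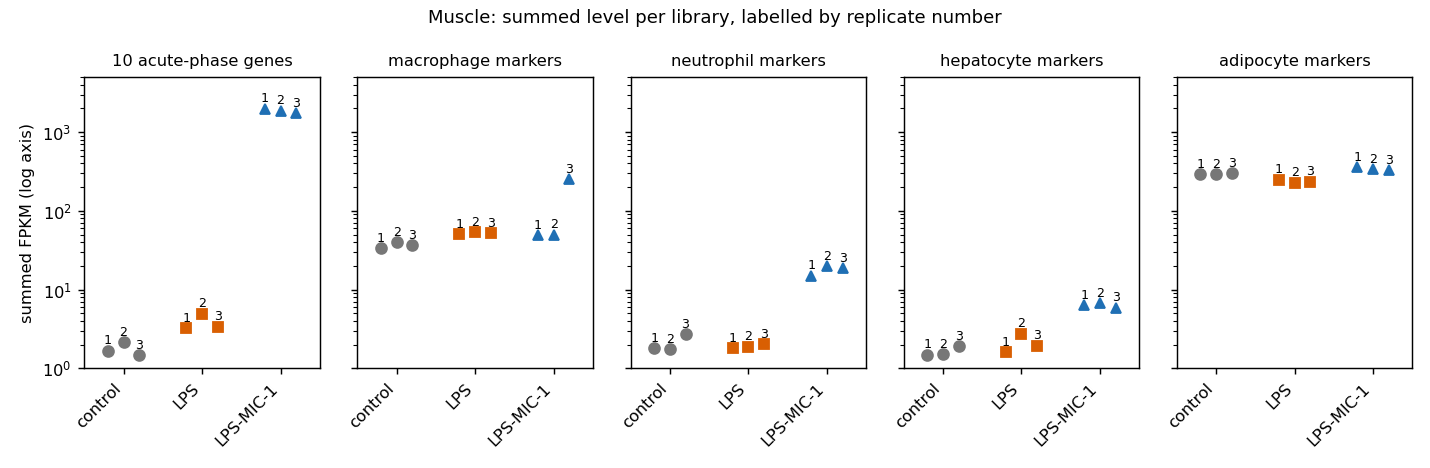
Summed FPKM of the 10 acute-phase genes and of 4 marker lists in each muscle library (log axis), labelled by replicate number. The acute-phase sum lies at 1759 to 1985 FPKM in LPS-MIC-1 and at 4.95 FPKM or less elsewhere. The macrophage sum is high in LPS-MIC-1 replicate 3 alone, and the neutrophil sum is higher in all 3 LPS-MIC-1 libraries.

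Close relatives of the members share sequence with them, and the way the authors divided shared fragments could move values within a family. In the RefSeq table of assembly GRCm38.p6, used here for gene order only, Saa3, Saa4, Saa1 and Saa2 lie side by side, as do Orm1, Orm3 and Orm2, and Serpina3m and Serpina3n are neighbours. Orm3 had the highest level of its family in LPS-MIC-1 muscle, at 21.4, 21.2 and 19.2 FPKM, and 0 to 0.380 FPKM in the other muscle libraries. The summed family of 3 Orm genes was at 36.3 ± 3.41 FPKM (SD, n = 3) in LPS-MIC-1, 0.296 ± 0.146 FPKM in LPS and 0.0833 ± 0.0722 FPKM in control muscle. Saa4, the constitutive member of its family, did not share the pattern, at 0.0729 to 0.189 FPKM with LPS-MIC-1 and 0 to 0.233 FPKM otherwise. Among 9 further Serpina3 genes, Serpina3c (2.36 FPKM), Serpina3f (1.62 FPKM) and Serpina3k (1.501 FPKM) had a mean over 1 FPKM in LPS-MIC-1 muscle and were picked out after their values were seen.

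The counts of the lists that follow stand against the shares of all genes called in the same comparison. For C2C12 LPS-MIC-1 these were 21.1% to 25.6% in each direction. For LPS against control they were 10.9% higher and 10% lower in C2C12, and 0.654% and 0.591% in muscle. In muscle with LPS-MIC-1, 11.7% of all genes lay past 1 and 6.42% past -1 against LPS, and 11.5% and 7.07% against control. A list of 24 other acute-phase genes showed a similar split between experiments, with metallothioneins at the top. Mt1 and Mt2 bind zinc and copper and respond to both metals and cytokines. In muscle they were the 2 genes of this list called higher with LPS, out of 10 tested, while 8 were not called. Mt2 was at 7.70, 7.78 and 8.41 FPKM in control, 36.3, 35.6 and 35.5 FPKM with LPS and 6773, 6627 and 5957 FPKM with LPS-MIC-1. Its LPS difference was 2.16 (SE 0.0539, adjusted p = 4.34e-07 in limma). Mt1 went from 31.3 to 86.2 FPKM by group mean with LPS (difference 1.46, adjusted p = 1.32e-05), and its LPS-MIC-1 mean was 6015 FPKM. The list had a median LPS difference of 0.12, against 0.01 for all genes.

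With LPS-MIC-1, 9 of these 10 genes lay past 1 against LPS, described without a test, with a median of 3.04 against -0.01 for all genes. The fibrinogen genes Fga, Fgb and Fgg, typical of liver, had means of 0.771, 0.927 and 0.773 FPKM in LPS-MIC-1 muscle. In C2C12 libraries labelled LPS, 6 of 8 tested genes of the list were called higher and 0 lower, with a median of 3.55 against 0 for all genes. Among them were Il1rn, the interleukin-1 receptor antagonist (6.59, adjusted p = 0.000101 in limma), and Hamp, the iron hormone hepcidin (5.35, adjusted p = 0.00031). For LPS-MIC-1 against LPS in C2C12, 4 were called lower and 1, Mt1, higher (1.48, adjusted p = 3.21e-07), with a median of -2.89. Il1rn fell by 6.94 (adjusted p = 3.56e-05 in limma), and its LPS-MIC-1 libraries held 47.9, 5.40 and 5.44 FPKM, with replicate 1 again far above the other 2. Against control, 3 were called higher and 1 lower, with a median of 1.26.

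Genes that fall in the acute phase gave few values, since 1 of 5 was tested in C2C12 and 2 of 5 in muscle. Trf, transferrin, was called lower in all 3 C2C12 comparisons, with differences of -1.36 (LPS, control), -3.32 (LPS-MIC-1, LPS) and -4.68 (LPS-MIC-1, control). Apoa1, the main protein of high-density lipoprotein, was called higher in muscle labelled LPS. It was at 0.646, 0.183 and 0.277 FPKM in control, 3.82, 3.28 and 2.96 FPKM with LPS and 1.54, 0.523 and 1.24 FPKM with LPS-MIC-1. Its LPS difference was 3.00 (SE 0.448, adjusted p = 0.00306 in limma), a direction opposite to that of the list's name. Trf was not called there.

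Of 17 cytokine and receptor genes upstream of the acute phase, 15 were tested in C2C12, and 3 were called higher with LPS and 0 lower. Il6 was at 0 in the 3 control libraries, 55.0, 54.4 and 61.0 FPKM with LPS and 13.6, 9.32 and 14.1 FPKM with LPS-MIC-1. The others were Il1a (8.54, adjusted p = 1.76e-05 in limma) and Lif (6.18, adjusted p = 1.5e-07). For LPS-MIC-1 against LPS, 7 were called lower and 4 higher out of 15, where 25.6% and 24.3% of all genes were called, so the count of those higher was near the share of all genes. The ligands Osm (-8.14), Il1b (-7.97) and Tnf (-7.12) gave the largest differences among those lower, and each had a higher value in replicate 1 than in the other 2 LPS-MIC-1 libraries, as with Tnf at 13.2, 1.19 and 1.24 FPKM. The receptors Osmr, at 16.2, 13.5 and 11.7 FPKM with LPS-MIC-1 and 0 to 0.0379 FPKM otherwise, and Il1r1, at 5.98, 4.67 and 4.97 FPKM, were among those higher. Osmr and Il1r1 passed the filter on the mean through the LPS-MIC-1 libraries alone. Their direction in the comparisons with this group was therefore fixed by the filter. Against control, 5 were called higher and 1 lower.

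In muscle 6 of these 17 genes were tested and 0 were called for LPS against control in limma. The receptor genes Il1r1 (0.40, adjusted p = 0.0358) and Il6st (0.26, adjusted p = 0.00988) passed on p but not on the log2 threshold of 1. The cytokines themselves were low in every muscle group. Il6 was at 0 in control and 0.152, 0.512 and 0.694 FPKM with LPS-MIC-1, Il1b did not exceed 0.375 FPKM and Tnf reached 1.49 FPKM. The receptor Il1r1 was at 2.34, 2.20 and 2.32 FPKM in control, 2.83, 3.41 and 2.91 FPKM with LPS and 11.05, 10.1 and 8.90 FPKM with LPS-MIC-1. Osmr was at 2.55, 3.70 and 3.81 FPKM with LPS-MIC-1 against 1.44 to 1.88 FPKM otherwise, while Lifr was lower, at 2.33, 3.32 and 2.59 FPKM against 6.40 to 7.89 FPKM.

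Of 18 signalling genes and transcription factors that act on acute-phase promoters, 16 were tested in each experiment. In C2C12 libraries labelled LPS, 10 were called higher and 0 lower, where 10.9% and 10% of all genes were called, with a median of 1.08. Socs3, which dampens interleukin-6 signalling, was at 32.8, 34.6 and 31.7 FPKM in control and 297, 301 and 296 FPKM with LPS (3.17, adjusted p = 6.95e-07 in limma). Nfkbiz (3.13) and Nfkbia (2.15), both I-kappa-B proteins, followed. For LPS-MIC-1 against LPS, 8 were called lower and 1 higher, with a median of -1.60. Socs3 was then at 29.9, 21.1 and 19.3 FPKM (-3.69), and the gene called higher was Socs1 (1.87, adjusted p = 7.78e-05). Against control, 3 were called higher and 1 lower.

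The same list moved otherwise in muscle labelled LPS, where 0 were called higher and 3 lower. Socs1 was at 49.4, 49.5 and 47.6 FPKM in control and 0.792, 1.38 and 0.429 FPKM with LPS (-5.79, adjusted p = 1.84e-05 in limma). Socs3 was at 6.10, 4.63 and 5.78 FPKM in control and 0.725, 1.08 and 0.288 FPKM with LPS (-2.95, adjusted p = 0.00112). Cebpd, a C/EBP factor induced in the acute phase, was at 12.3, 13.4 and 13.0 FPKM in control and 4.58, 5.35 and 4.05 FPKM with LPS (-1.46, adjusted p = 4.97e-05). With LPS-MIC-1 Cebpd was at 399, 422 and 377 FPKM and Cebpb at 81.9, 89.1 and 78.8 FPKM, against 14.7 to 22.4 FPKM for Cebpb in the other groups. Stat3, picked out after its values were seen, was at 29.3, 30.9 and 28.8 FPKM against 5.97 to 7.40 FPKM. In all, 9 of the 16 lay past 1 and 0 past -1 against LPS, and 7 and 1 against control, again without a test. The shares of all genes were 11.7% and 6.42% against LPS, and 11.5% and 7.07% against control.

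**Figure D5:**
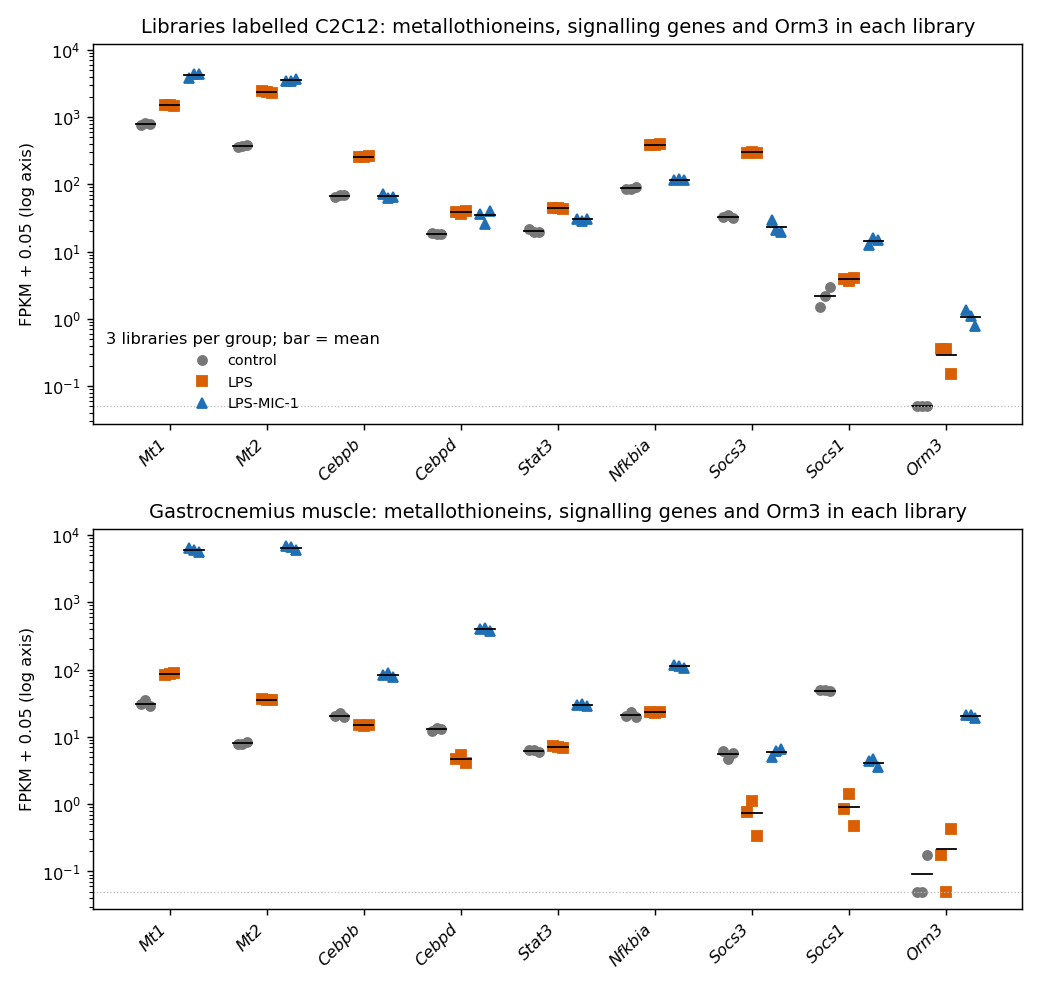
FPKM of metallothioneins, signalling genes and Orm3 in every library (log axis, 0.05 added; the dotted line marks 0), 3 points per group and a bar at the mean. In muscle Cebpd is lower with LPS than in control and lies at 377 to 422 FPKM with LPS-MIC-1, and Mt2 lies at 5957 FPKM or more there. In C2C12 libraries Socs3 is highest with LPS.

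Receptors and partners of the members were a list of 12 genes, with 8 tested in C2C12 and 4 in muscle. Slc22a17, a lipocalin 2 receptor, was at 3.93, 3.19 and 3.68 FPKM in C2C12 control and at 0.660, 0 and 0 FPKM with LPS-MIC-1 (-4.23 against control, adjusted p = 0.000662 in limma). In muscle it did not exceed 1.08 FPKM. Mmp9, the gelatinase that lipocalin 2 binds, was called higher in C2C12 labelled LPS (5.74, adjusted p = 2.71e-05) and lower with LPS-MIC-1 than with LPS (-6.24). In muscle Mmp9 did not exceed 0.414 FPKM, also in the libraries where Lcn2 was at 1162 FPKM or more. Scarb1, a receptor that takes up serum amyloid A, was called lower in all 3 C2C12 comparisons. In all, LPS against control gave 2 higher and 2 lower in C2C12 and 0 calls in muscle, LPS-MIC-1 against LPS gave 0 higher and 4 lower, and against control 0 higher and 3 lower. In muscle 1 of the 4 lay past 1 (Hmox1) and 1 past -1 (Scarb1) in both comparisons with LPS-MIC-1.

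The genes whose pattern was most like that of Lcn2 in both experiments were H2-T23, Csf3 and Tiparp, among 8422 genes over 1 FPKM in both tables. Likeness was the lower of 2 Pearson correlations of log2(FPKM + 0.1), each across the 9 libraries of a table, and was 0.99, 0.98 and 0.98. Csf3, the granulocyte colony-stimulating factor, had group means of 0.501, 2581 and 22.5 FPKM in C2C12 control, LPS and LPS-MIC-1, and of 0, 0.0423 and 8.13 FPKM in muscle. The correlation takes no account of the size of a difference. H2-T23 had means of only 34.3, 76.1 and 42.7 FPKM in C2C12 and 8.01, 8.07 and 18.3 FPKM in muscle, in the same order. For Saa3 the nearest were the chemokine Ccl2, Nfe2l1 and Cmtm4, at 0.99, 0.98 and 0.98. Ccl2 had means of 79.9, 951 and 383 FPKM in C2C12 and of 0.159, 0.564 and 10.4 FPKM in muscle. Nfe2l1 differed far less in size, at 47.6, 132 and 106 FPKM and at 98.3, 107 and 162 FPKM. The 9 libraries fall into 3 groups and share their tables with Lcn2 and Saa3, so these values describe the group means and carry no p.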

How the data were processed

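RNA sequencing of 9 C2C12 and 9 gastrocnemius libraries was analysed. The authors deposited 1 table of FPKM values per experiment. Per the labels, the submitters' processing notes name kallisto, DESeq2 and mm9, and how fragments shared by near-identical genes were divided is not given in the sources used here. FPKM values hold no counts, so reads per library are unknown and no counting interval is given. Low values move in steps of 1 read, which limits precision at low levels. The authors' tables of log2 fold changes, standard errors, p-values and base means were not used. The muscle table also held 9 unnamed columns of per-sample values, which were not used.

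Values were tested with limma 3.58.1 in R 4.3.3 on log2(FPKM + 0.1), with all 3 groups of an experiment in 1 model, moderated variances with a trend, and genes with a mean over 1 FPKM. P-values were adjusted over all genes tested (Benjamini-Hochberg). A gene was called at an absolute log2 difference over 1 with an adjusted p under 0.001 in C2C12 and under 0.05 in muscle, the thresholds of the study's methods. Fold changes on this scale understate the change of low genes. Muscle LPS-MIC-1 comparisons were described only. Exact permutation tests were two-sided. The fit was checked on simulated data. Tables were normalized separately, so tests stayed within a table.

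The members and lists were chosen with earlier results of these data known. Named genes were the members, the 3 genes of each list with the largest difference among those called in a comparison (past 1 where nothing was tested), the 3 highest genes of a marker list, and the 3 genes nearest to Lcn2 and Saa3 in pattern. Genes outside this rule, such as Stat3, Saa4, the fibrinogen genes, further Serpina3 genes, low cytokines in muscle and defining markers at or near 0, were named after their values were seen. The values of 1 list gene that the rule names are not reported here. Gene order came from RefSeq (GRCm38.p6), where all 10 members matched by symbol. Python 3.11.15, pandas 2.3.3, scipy 1.17.1 and matplotlib 3.10.9 were used. Alternatives covered the pseudocount, the filter, scaling, the variance trend, the libraries entering the model, a replicate block and leaving out each library.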

Additional observations from a re-analysis of the deposited data

Results flagged for a closer look

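Lcn2 and Saa3 differed in opposite directions between LPS-MIC-1 and LPS in the 2 experiments. In C2C12 every LPS-MIC-1 library was below every LPS library, with log2 differences of -8.05 for Lcn2 and -3.40 for Saa3. In muscle every LPS-MIC-1 library was above every LPS library, with differences of 10.37 for Lcn2 and 8.85 for Saa3. The difference between the experiments was not tested, since the tables were normalized separately and the genes were chosen on the muscle values. Without C2C12 LPS-MIC-1 replicate 1, the C2C12 differences were -9.47 and -3.59. The C2C12 libraries labelled LPS held macrophage markers and lacked myogenic ones, unlike those labelled LPS-MIC-1, so cell identity and treatment cannot be told apart there.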

How the results depend on the processing

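The setting with no FPKM filter still required a value above 0 in at least 3 libraries. In it, 3 members were called higher for LPS-MIC-1 against LPS in C2C12 and 4 against control, in place of 1 and 2. All genes called higher numbered 3726 and 3449 in place of 2648 and 2300. Genes of the other lists called higher numbered 10 and 17 in place of 6 and 11. With a mean over 5 FPKM the first of these list counts was 3. Without the filter the median of all genes in these comparisons moved by 0.234 and 0.248. With only the 6 libraries compared, 1 member was called lower for LPS-MIC-1 against LPS in place of 2, because Lcn2, at the same difference of -8.05, had an adjusted p of 0.00100327 in limma against the threshold of 0.001, and 0 members could be called in muscle for LPS against control, because none passed the filter. With 1 added to each FPKM, 1 member was called higher in muscle in place of 2. At an adjusted p under 0.05 in C2C12, chosen after seeing the data, Lcn2 was called above control with LPS-MIC-1 (adjusted p = 0.0251 in limma), and 12 genes of the other lists were called lower in place of 7. Leaving out 1 library at a time gave 6 to 14 for that count, with 14 without LPS-MIC-1 replicate 1, and changed no count of members. Hp in muscle for LPS against control changed sign, from -0.46 to 0.45, without LPS replicate 3, and ranged from -0.92 to 0.45 over the libraries left out. The causes were not tested beyond the filters named. The labels give every group replicates 1 to 3. With the replicate block, members called higher and lower stayed at 2 and 0, 1 and 2, and 2 and 0 in C2C12, and 2 and 0 in muscle, and genes of the other lists called lower for LPS against control in C2C12 went from 3 to 2. Same-numbered libraries did not deviate together (r from -0.0757 to 0.0573 in C2C12 and -0.0540 to 0.0823 in muscle over 9 pairs each). These values gave no sign of pairing by number, but a shared effect that is small beside the noise of single libraries would not show.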
